A study of Mus musculus with 12 samples.

Results

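The molecular chaperones of the HSP and DNAJ families were followed in the cerebellum of sedentary and exercised mice. The members were all protein-coding genes whose mouse symbol places them among the DNAJA, DNAJB and DNAJC proteins, the HSPA (HSP70 and HSP110) and HSPB (small heat shock) proteins, HSP90, HSP110 (Hsph1), and the mitochondrial chaperonin pair Hspd1 and Hspe1, with 1 small heat shock gene left out of the rule. The rule used names and no measured value, and it found 70 genes among the 56941 genes counted. They comprised 28 DNAJC, 13 DNAJB, 4 DNAJA, 6 cytosolic HSP70, 2 endoplasmic reticulum (ER) HSP70, 1 mitochondrial HSP70, 2 HSPA12, 3 HSP110, 3 HSP90, 2 chaperonin and 6 small HSP genes. Of the 70, 62 had enough counts to be tested.

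Bulk cerebellar RNA came from 12 mice aged 16 weeks. SCA1 mice were heterozygous for an Atxn1 knock-in, an expanded CAG repeat at the endogenous locus and so active wherever Atxn1 is, and WT mice were C57BL/6J littermates. Gene counts do not show the repeat, and Atxn1 itself stood at 147 to 193 CPM over all 12 mice. Exercise mice had a running wheel from 4 to 16 weeks of age and lived alone. Sedentary mice were housed in groups without one, so wheel running and housing cannot be told apart in these RNA data. The paper found no behavioural difference between group-housed mice and mice alone with a fixed wheel, and it reports no RNA from the latter. According to the paper, wheels were removed before behavioural testing and tissue was taken after the last test. The levels were therefore not measured during running. The 4 groups held 3 mice each, namely WT sedentary (mice 116, 117 and 192), WT exercise (121, 197 and 201), SCA1 sedentary (16, 194 and 195) and SCA1 exercise (55, 122 and 198).

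HSP70 proteins bind exposed stretches of unfolded proteins and release them in a cycle driven by ATP. DNAJ proteins, also called HSP40, deliver clients to HSP70 and start ATP hydrolysis through the J domain, HSP110 proteins exchange the nucleotide, HSP90 receives clients that need late folding steps, and small HSPs hold unfolded proteins without using ATP. In polyglutamine disease, to which SCA1 belongs, the HSP70 and HSP40 system is known for its action on aggregates of the expanded protein. Heat shock factor (HSF) induces many of these genes through heat shock elements, and the ER members are induced in the unfolded protein response through ER stress elements.

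Promoter sequences are shown for the members whose window holds such an element, because these are the genes with a printed site for a shared regulator. RefSeq promoter windows (GRCm38.p6, 250 bases before to 50 after a start site) were found for 56 members; Dnajc2, Dnajc5, Dnajc5b, Dnajc11, Dnajc12, Dnajc18, Dnajc22, Dnajc30, Hspa8, Hspa9, Hspa13, Hspb2, Hsp90aa1 and Hsp90ab1 had none in the table. The heat shock element searched on both strands was GAANNTTCNNGAA, where N is any base, and it occurred in 198 of 32851 windows (0.603%). It was found for 4 members, Hspd1, Hspe1, Dnajb6 and Hsph1. The site of Hspd1 and Hspe1 is a single stretch on chr1:55088039-55088096, between divergent start sites 215 bases apart. Here it is given on the Hspe1 strand, and for Dnajb6 on chr5:29735832-29735884, plus strand, with the element, or overlapping elements on both strands, in capitals:
Hspe1 and Hspd1: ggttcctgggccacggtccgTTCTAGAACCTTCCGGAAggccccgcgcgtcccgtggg
Dnajb6: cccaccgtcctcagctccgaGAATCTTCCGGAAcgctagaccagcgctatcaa
In Hsph1 the element lay 37 to 49 bases after the upstream of its listed start sites. The shorter form GAANNTTC, which lies within the longer one, was far more common, at 7.86% of all windows, and 13 members had it. These included the stress-inducible HSP70 genes Hspa1a (chr17:34972233-34972280, minus strand) and Hspa1b (chr17:34959315-34959362, minus strand), whose stretches were identical:
Hspa1a: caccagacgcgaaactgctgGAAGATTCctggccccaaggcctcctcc
Hspa1b: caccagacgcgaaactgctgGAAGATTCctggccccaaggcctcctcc
The ER stress element, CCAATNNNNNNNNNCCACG on either strand, occurred in 39 windows (0.119%). The 3 members that held it, Hspa5 (BiP, chr2:34772005-34772063, plus strand), Hsp90b1 (GRP94, chr10:86705513-86705676, minus strand) and Dnajc3 (P58IPK, chr14:118937807-118937865, plus strand), all work in the ER. The element is again in capitals, and in Hsp90b1 the downstream copy is on the opposite strand:
Hspa5: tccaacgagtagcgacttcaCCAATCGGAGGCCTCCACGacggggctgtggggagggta
Hsp90b1: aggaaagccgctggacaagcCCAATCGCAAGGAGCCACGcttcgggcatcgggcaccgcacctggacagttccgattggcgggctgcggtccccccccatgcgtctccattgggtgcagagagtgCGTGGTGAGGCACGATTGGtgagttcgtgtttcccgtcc
Dnajc3: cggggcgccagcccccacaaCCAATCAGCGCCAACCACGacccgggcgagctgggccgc

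Counts of read pairs on the reverse strand, as deposited, totalled 20556802 to 32127508 per library, and levels are given as CPM, counts scaled to the TMM-normalised size of each library. The libraries of mouse 16 (SCA1 sedentary) and mouse 55 (SCA1 exercise) stood apart. Pairs that mapped to several places made up 6.38% and 6.33% of them, against 2.08% to 3.46% elsewhere. All 5 oligodendrocyte markers were higher in both than in any other mouse, with a summed level of 6249 and 4869 CPM against 2186 to 3683 CPM in the other 10. The summed forebrain and brainstem markers stood at 200.6 and 164 CPM against 34.5 to 59.8 CPM, and 3 of those 5 genes were higher in both. Granule cell markers summed to 1570 and 2049 CPM in these mice and to 2083 to 3192 CPM in the others, with 3 of 5 genes lower in both. None of these markers was at 0 in all mice. Purkinje cell markers, summed, were lower in all 6 SCA1 mice (3849 to 6442 CPM) than in all 6 WT mice (6457 to 7265 CPM), and their part in the genotype comparisons was not tested. Transcripts of chromosome Y were near absent in mice 201, 194, 55 and 122 and the labels give no sex, and choroid plexus markers summed to 12.4 to 1900 CPM among the mice other than 16 and 55.

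The chaperones were abundant, together 0.543% to 0.722% of the counts of a library. Of the 70 members, 59 had a mean of at least 1 CPM, 51 of at least 10 and 16 of at least 100 CPM. HSP90 genes made up 21.1% of the chaperone CPM, cytosolic HSP70 genes 17.3% and the DNAJC genes 28.3%, whereas small HSPs made up 0.320%. Per kilobase of exon, 3 cytosolic chaperones led. Hsp90ab1, the constitutive HSP90, averaged 128 CPM per kb (112 to 168 among the mice), Hspa8, the constitutive HSP70 that also uncoats clathrin, 111 CPM per kb (94.5 to 158), and Hsp90aa1, the inducible HSP90, 80.8 CPM per kb (64.8 to 106). The ranges of Hsp90ab1 and Hspa8 overlapped, as did those of Hspa8 and Hsp90aa1. The mitochondrial HSP70 Hspa9 followed at 33.6 CPM per kb, and the next 6 lay close together. These were the clathrin cochaperone auxilin (Dnajc6, 29.4 CPM per kb), Hsp90b1 (29.3), the synaptic vesicle protein CSPα (Dnajc5, 28.8), the HSP110 gene Hspa4 (28.7), Hspa5 (27.5) and Hspd1 (24.9 CPM per kb), whose ranges overlapped. Exon length here joins all annotated transcripts of a gene, which lowers the per-kb value of genes with many long variants.

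**Figure D1:**
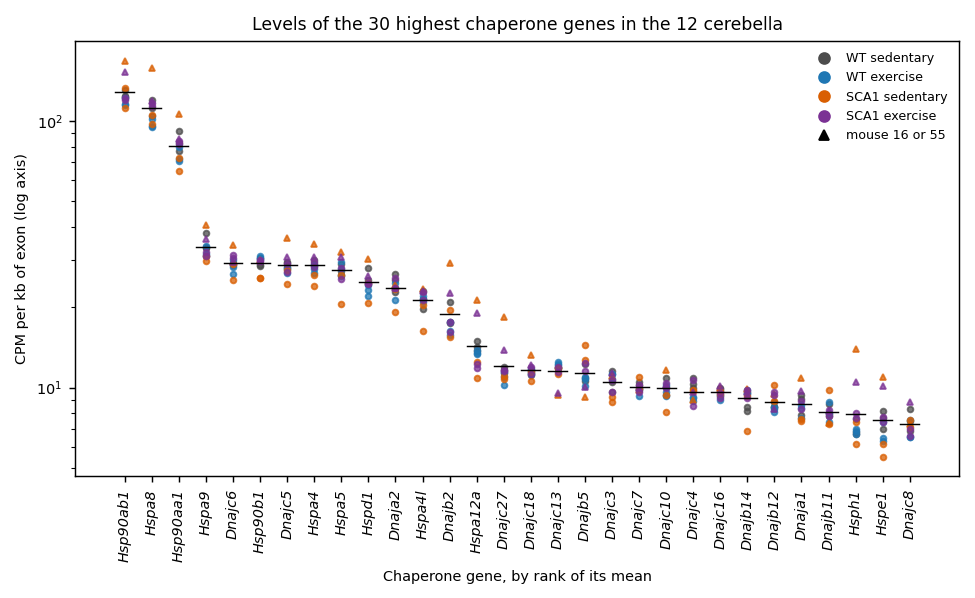
The 30 chaperone genes with the highest mean CPM per kb of exon (log axis), 1 point per mouse coloured by group, with mice 16 and 55 as triangles and the mean of 12 mice as a bar. Hsp90ab1, Hspa8 and Hsp90aa1 lie above all others, from 64.8 to 168 CPM per kb.

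The stress-inducible HSP70 genes stood at the other end. Hspa1a averaged 1.15 CPM per kb and Hspa1b 0.822, about a hundredth of Hspa8. Their level is uncertain, since only pairs with a unique position were counted, and 37.9% of the 151-base windows of Hspa1a transcripts recur in Hspa1b and 40.3% of those of Hspa1b in Hspa1a. Such windows outside the gene's own locus made up 15.5% for Hsp90aa1, 6.97% for Hspa8, 5.99% for Dnajb6 and 5.07% for Hspd1, mostly in genes with provisional names or a pseudogene. Dnajb7, Dnajb8 and Dnajc5g, genes known from testis, had 0 counts in all 12 libraries. The other untested members were Dnajc22, Dnajc5b, Hspa1l, Hspb7 and Hspb9. Opposite-strand genes cover part of the exons of 40 members, 77.9% in Dnaja1 and 62.1% in Hspb2, and a strand-specific count can still take a small share of their pairs, since 5.54% to 6.01% of stranded counts fell on the forward strand.

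Within groups the chaperones varied little. The median member was at percentile 22.2 of the within-group SD of log2 CPM over all tested genes, and 33 of 62 lay under percentile 25. This is a description, as spread falls with level. The ER chaperone Hsp90b1 stood at 187, 176 and 175 CPM in WT sedentary, 186, 187 and 191 in WT exercise, 184, 158 and 158 in SCA1 sedentary and 182, 183 and 182 CPM in SCA1 exercise mice. The values for BiP (Hspa5) were 152, 146 and 162 CPM in WT sedentary and 145, 155 and 165 in WT exercise mice, and 179, 147 and 114 in SCA1 sedentary and 172, 141 and 156 CPM in SCA1 exercise mice. In Hspa5 all groups overlapped. In Hsp90b1 the WT exercise mice lay above all SCA1 mice and overlapped the WT sedentary mice, and the test was not passed in any comparison. The least even members were Dnajb13, an axonemal DNAJ protein at 0.340 CPM (SD 0.80 on the log2 scale), Hspb8 (0.56), Hspa1b (0.47) and the small HSPs Hspb3 (0.44) and Hspb2 (0.41).

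The cytosolic machine of HSP70, HSP40 and HSP90 was followed through its main members. Hspa8 stood at 1036, 908 and 969 CPM in WT sedentary, 885, 833 and 820 in WT exercise, 1367, 915 and 846 in SCA1 sedentary and 1031, 986 and 1014 CPM in SCA1 exercise mice. Dnaja1, an HSP40 that serves Hspa8, ranged from 69.0 CPM in mouse 195 to 100.1 CPM in mouse 16, and the 6 WT mice lay between 70.5 and 86.1 CPM. The inducible Hsp90aa1 was at 420, 381 and 356 CPM in WT sedentary, 368, 327 and 330 in WT exercise, 487, 298 and 334 in SCA1 sedentary and 395, 378 and 386 CPM in SCA1 exercise mice. In each of these genes the highest mouse was mouse 16, and the sedentary groups overlapped.

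The stress-inducible pair was low in each group. Hspa1a stood at 3.35, 3.25 and 3.32 CPM in WT sedentary, 3.29, 2.96 and 3.52 in WT exercise, 4.48, 3.48 and 2.26 in SCA1 sedentary and 4.76, 3.54 and 2.87 CPM in SCA1 exercise mice. Hspa1b ranged from 1.11 CPM in mouse 195 to 3.45 CPM in mouse 55. The WT mice lay inside the range of the SCA1 mice in both genes. The mitochondrial chaperonin Hspd1 and its lid Hspe1 ranged from 77.2 to 113 CPM and from 9.82 to 19.5 CPM, again from mouse 195 to mouse 16. Hspb6, a small HSP of muscle and brain, was at 4.98 to 7.45 CPM, with overlap between all groups.

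**Figure D2:**
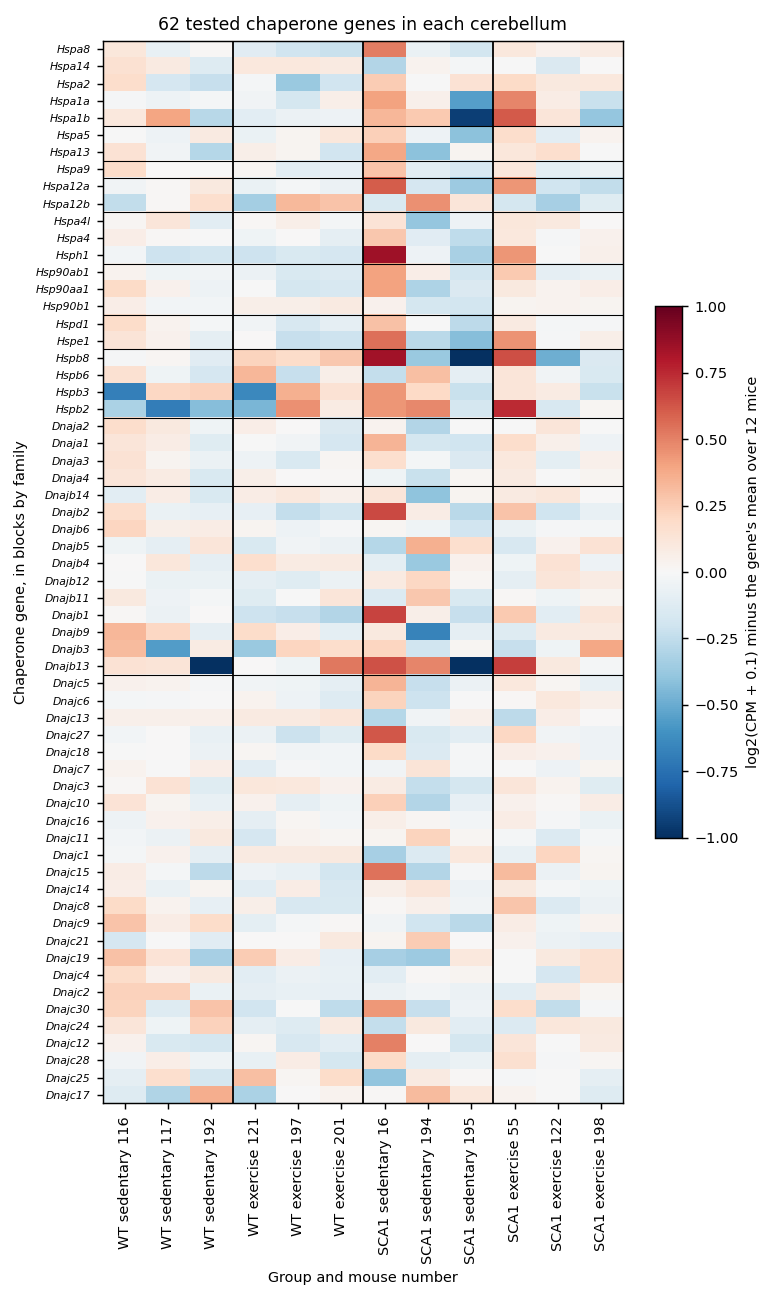
Each of the 62 tested chaperone genes (rows, in blocks by family) in each mouse (columns, by group), as log2(CPM + 0.1) minus the mean of the gene over the 12 mice, with colours saturated at 1. Mice 16, 55 and 195 hold many of the strongest colours, with Hsph1 at 155 CPM in mouse 16 and Hspb8 at 5.44 CPM in mouse 195.

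The effect of the SCA1 allele without exercise was asked by SCA1 sedentary against WT sedentary mice. No chaperone gene was called, a call being an absolute log2 fold change over 0.5 with an adjusted p under 0.05 (edgeR quasi-likelihood test, Benjamini-Hochberg over 20341 genes, lowest adjusted p 0.31), while 0.0344% of all genes did. At an unadjusted p under 0.05 there were 2 of 62 members by edgeR and 1 by DESeq2, against 10.1% of all genes. The median log2 fold change of the members was −0.00, beside 0.02 over all genes. In bulk tissue, fewer cells of a type and less RNA per cell cannot be told apart.

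Both members at an unadjusted p under 0.05 were DNAJ proteins with lower levels in SCA1. Dnajc9 (GRCm39 chr14:20434706-20438995, minus strand), a histone cochaperone, stood at 25.4, 22.005 and 23.7 CPM in WT sedentary mice (23.7 ± 1.68, SD, n = 3) and at 20.4, 18.1 and 17.3 CPM in SCA1 sedentary mice (18.6 ± 1.60). The groups did not overlap, and the log2 fold change was −0.35 ± 0.11 (SE, edgeR adjusted p 0.31). Exon bases shared with Fam149b on the opposite strand make up 22.8% of the length of Dnajc9. Dnajb6, known as a suppressor of polyglutamine aggregation, stood at 79.7, 71.6 and 72.6 CPM in WT sedentary mice and at 69.6, 66.7 and 60.3 CPM in SCA1 sedentary mice, again without overlap (log2 fold change −0.19 ± 0.09, edgeR adjusted p 0.49). The next by p among the lower members was the ER cochaperone Dnajb9 (ERdj4), at −0.35 ± 0.18 (edgeR adjusted p 0.56).

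On the higher side, Hspb2 had the largest value, 0.97 ± 0.48 on the log2 scale (edgeR adjusted p 0.52), from 0.252, 0.171 and 0.226 CPM in WT sedentary mice to 0.494, 0.510 and 0.289 CPM in SCA1 sedentary mice. Its gene overlaps Cryab over 62.1% of its exons. Dnajc21, a ribosome assembly factor, was at 0.20 ± 0.11, and Dnajb12, an ER membrane cochaperone, at 0.16 ± 0.09 (edgeR adjusted p 0.58 and 0.60). The exact permutation p was 0.1 for each of Hspb2, Dnajc21, Dnajb12, Dnajc9 and Dnajb6, the smallest that 3 mice against 3 can give. For Dnajb9 it was 0.3. These members were named for a small p in the same data, so neither the exact p nor a lack of overlap adds support. The share of all genes at 0.1 was not counted.

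Between SCA1 exercise and WT exercise mice, which compares the genotypes among runners, no member and 0% of all genes were called (edgeR, lowest adjusted p of a member 0.96). At an unadjusted p under 0.05 there was 1 member by edgeR and 1 by DESeq2, against 2.93% of all genes. Higher values were more frequent, in 44 of 62 members, and the median was 0.07 beside 0.00 over all genes. The member was Hspa2, an HSP70 known best from germ cells but present in brain. It stood at 20.5, 16.0 and 18.1 CPM in WT exercise mice and at 23.7, 22.2 and 22.3 CPM in SCA1 exercise mice, without overlap (log2 fold change 0.32 ± 0.14, edgeR adjusted p 0.96). Dnajb1, the main heat-inducible HSP40, stood at 23.2, 22.8 and 21.9 CPM in WT exercise mice and at 32.1, 24.979 and 29.2 CPM in SCA1 exercise mice (0.35 ± 0.19). Its HSP70 partner Hspa8 went from 885, 833 and 820 to 1031, 986 and 1014 CPM (0.26 ± 0.16). Those 2 genes also did not overlap between the groups, and neither passed the test (edgeR adjusted p 0.96 for each). These members were named for a small p in the same data, and the share of all genes without overlap was not counted.

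Averaged over activity, SCA1 against WT gave no called member (edgeR, lowest adjusted p 0.42), with 0.118% of all genes called. At an unadjusted p under 0.05 there were 4 members by edgeR and 4 by DESeq2, against 9.81% of all genes. By edgeR all 4 were higher in SCA1. They were Hspa2 (log2 fold change 0.26 ± 0.10), Dnajb12 (0.14 ± 0.06), Dnajb1 (0.29 ± 0.13) and Hsph1 (0.37 ± 0.17), the last named after its value was seen. Hsph1 (GRCm39 chr5:149537636-149560156, minus strand), the heat-inducible HSP110 that works with Hspa8 and Dnajb1, stood at 84.6, 74.6 and 75.7 CPM in WT sedentary and 74.3, 77.6 and 76.5 in WT exercise mice. In SCA1 it stood at 155, 82.9 and 68.6 CPM in sedentary and 117, 85.8 and 89.0 CPM in exercise mice. All SCA1 exercise mice thus lay above the WT mice. The SCA1 sedentary mice lay above, within and below the WT range, and the highest values were those of mice 16 and 55. Without these mice the log2 fold change was 0.09 ± 0.07 for Hsph1 and 0.11 ± 0.08 for Dnajb1 (edgeR adjusted p 0.66 and 0.63), while Hspa2 stood at 0.22 ± 0.10 and Dnajb12 at 0.19 ± 0.06. Among the lower members, the endosomal Dnajc13 (RME-8) had the smallest p (−0.15 ± 0.07, edgeR adjusted p 0.54), with its lowest values in the same mice, 113 and 115 CPM against 135 to 151 CPM in the other 10. Dnajc9 (−0.14 ± 0.08) and Dnajb6 (−0.10 ± 0.06) followed (edgeR adjusted p 0.55 and 0.59).

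**Figure D3:**
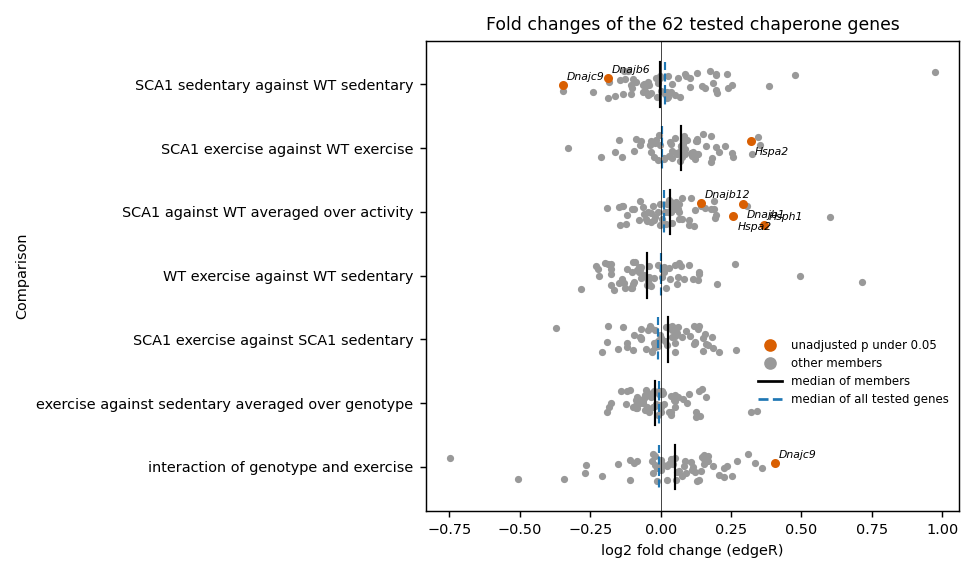
Log2 fold change of each tested chaperone gene (points) in the 7 comparisons, with the median of the members (black) and of all tested genes (dashed blue). Orange points are members at an unadjusted p under 0.05, at most 4 per comparison, and none passed the adjusted threshold.

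Exercise moved no chaperone gene past the threshold. In WT exercise against WT sedentary mice, 0 members and 0% of all genes were called (edgeR, lowest adjusted p of a member 0.96), and at an unadjusted p under 0.05 there was no member by either edgeR or DESeq2, against 4.69% of all genes. The values were lower in 39 of 62 members, with a median of −0.05 beside 0.00 over all genes. Dnajc9 had the smallest p and stood at 19.5, 20.6 and 21.1 CPM in WT exercise mice, below the 3 WT sedentary mice (−0.22 ± 0.11). Dnajc2, a ribosome-bound HSP40, was at −0.22 ± 0.12 and Dnajc4 at −0.19 ± 0.11. Higher were Hspb2 (0.72 ± 0.48), Dnajc25 (0.20 ± 0.17) and Dnajc21 (0.13 ± 0.11), all 6 with an edgeR adjusted p of 0.96.

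SCA1 exercise against SCA1 sedentary mice, which compares the disease model with and without earlier wheel access, gave the same count. No member and 0% of all genes were called (edgeR, lowest adjusted p of a member 0.999), and none of the 62 had an unadjusted p under 0.05 by edgeR or DESeq2, against 2.17% of all genes. Here 35 members were higher and 27 lower, with a median of 0.03 beside −0.01. Dnajc9 was at 21.9, 20.2 and 21.4 CPM in SCA1 exercise mice, against 20.4, 18.1 and 17.3 CPM in SCA1 sedentary mice (0.19 ± 0.11). Hsp90b1 was at 0.13 ± 0.08 and Dnajc19, of the mitochondrial import motor, at 0.27 ± 0.18. On the lower side were Hspa12b, an endothelial HSP70 relative (−0.37 ± 0.22), the mitochondrial Dnajc11 (−0.15 ± 0.10) and Dnajc21 (−0.13 ± 0.11). The SE of a member was typically 0.14 on the log2 scale.

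Averaged over genotype, exercise gave no called member and 0% called genes (edgeR, lowest adjusted p of a member 0.94), with no member at an unadjusted p under 0.05 by either tool, against 3.54% of all genes. The most extreme were Dnajc1, an ER membrane cochaperone (0.14 ± 0.08), Hsp90b1 (0.10 ± 0.06) and Dnajb14 (0.14 ± 0.09) on the higher side. Dnajc30 (−0.19 ± 0.13), Dnajc11 (−0.10 ± 0.07) and Dnajb2 (−0.18 ± 0.14), a neuronal HSP40 that sorts clients to the proteasome, were lower. All 6 had an edgeR adjusted p of 0.94.

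The interaction of genotype and exercise was not significant for any member (0 called by edgeR, 0% of all genes, lowest adjusted p of a member 1.00). Dnajc9 was the only member at an unadjusted p under 0.05, by edgeR, with 1 member by DESeq2 and 3.78% of all genes. Its exercise difference was −0.22 in WT and 0.19 in SCA1, a contrast of 0.40 ± 0.15 on the log2 scale (edgeR adjusted p 1.00). Next were Dnajc2 (0.27 ± 0.17) and Dnaja2 (0.22 ± 0.15), and with the opposite sign Dnajc21 (−0.26 ± 0.15), Hspa12b (−0.51 ± 0.31) and Hspb2 (−0.75 ± 0.66).

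By role, 10 of 11 heat-inducible members had a value above 0 in SCA1 exercise against WT exercise mice, with a median of 0.20, beside 50.7% of all tested genes above 0. Between the sedentary groups it was 4 of 11, with a median of −0.02, beside 52.5% of all tested genes. Both counts were lower without mice 16 and 55, in a setting added after seeing the data. Then 8 of 11 were above 0 among runners (median 0.089), beside 53.0% of all genes. Among sedentary mice it was 0 of 11 (median −0.18), beside 51.6% of all genes. None of the 11 was called in either (edgeR). Of 14 ER members, 7 were higher among runners and 5 among sedentary mice, with medians of 0.01 and −0.03. The 10 mitochondrial members included 8 that were higher among runners (median 0.10) and 3 among sedentary mice (−0.04). No member of these groups was called in any of the 7 comparisons, and the comparisons among runners and among WT mice share the WT exercise mice. Oligodendrocyte markers, summed, were at 2378 to 2513 CPM in the WT exercise mice and at 2250 to 4869 CPM in the SCA1 exercise mice, and their part was not tested.

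Mice 16 and 55 were both above all other 10 mice in 20 of 62 tested members (32.3%), against 17.1% of all tested genes. Both were below the others in 3 members, Dnajb5, Dnajc13 and Dnajc24, against 13.9% of all genes. Compared with the other 4 SCA1 mice, the median log2 difference was 0.18 over the members and 0.02 over all tested genes. The 20 came from most families, as Hspa1a, Hspa2, Hspa5, Hspa4, Hsph1, Hspa12a, Hsp90ab1, Hspe1, Hspb8, Dnaja1, Dnajb1, Dnajb2, Dnajb13, Dnajc5, Dnajc12, Dnajc15, Dnajc16, Dnajc18, Dnajc27 and Dnajc28. Oligodendrocyte and brainstem markers moved with them, as described above. So did microglia markers, at a summed 104.6 and 82.1 CPM in mice 16 and 55 against 50.4 to 68.7 CPM, with 4 of 5 genes higher in both, and meningeal markers, at 115 and 97.6 CPM against 47.1 to 89.3 CPM, with 2 of 5 genes higher. Endothelial markers were lower, at 121.7 and 127 CPM against 148.5 to 175 CPM, with 2 of 5 genes lower in both. The part of these markers in the chaperone levels was not tested.

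Among the 20, the largest ratio in a gene above 1 CPM was that of Hspb8. Hspa12a, an HSP70 relative common in brain, stood at 202 and 181 CPM in mice 16 and 55 and at 103 to 142 CPM in the others, 1.70 times the level of the other SCA1 mice. Hsph1 was 1.66 times, Hspe1 1.58 times and Hspa1a 1.53 times that level. Dnajb2 stood at 127 and 97.7 CPM against 66.8 to 90.7 CPM, and Hsp90ab1 at 909 and 825 CPM against 604 to 718 CPM. Since both mice are SCA1, they enter each comparison of genotype on the SCA1 side.

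**Figure D4:**
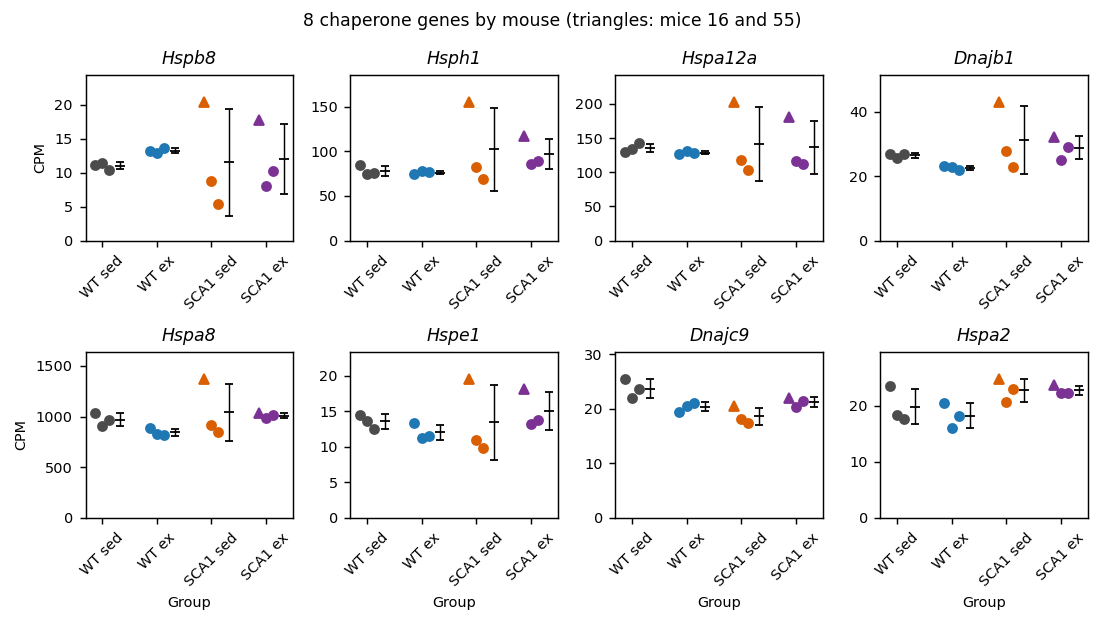
CPM of 8 chaperone genes in each mouse by group (sed, sedentary, ex, exercise), with mice 16 and 55 as triangles, the group mean as a dash and the SD as a bar. In Hspb8 the triangles lie at 20.4 and 17.8 CPM and the other SCA1 mice at 5.44 to 10.2 CPM, on either side of the WT mice.

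Hspb8 (GRCm39 chr5:116546409-116561084, minus strand), a small HSP that works with the cochaperone Bag3 in selective autophagy of aggregates, was the only member whose call depended on those mice. It was counted 113 to 577 times per library. Its level was 11.2, 11.5 and 10.5 CPM in WT sedentary mice (11.0 ± 0.520) and 13.2, 12.9 and 13.7 CPM in WT exercise mice (13.2 ± 0.404). The SCA1 sedentary mice held 20.4, 8.75 and 5.44 CPM (11.5 ± 7.84) and the SCA1 exercise mice 17.8, 8.05 and 10.2 CPM. Over all 12 mice SCA1 and WT overlapped and the test was not passed (log2 fold change −0.03 ± 0.28, edgeR adjusted p 0.98, exact permutation p 0.58). Leaving out mice 16 and 55 was a setting chosen from these data, for their share of multiply mapped pairs. Without them Hspb8 was lower in SCA1, with a log2 fold change of −0.57 ± 0.13 (edgeR adjusted p 0.048). The remaining 4 SCA1 mice all lay below the 6 WT mice. Hspb8 was then the single member called of 62, against 0.693% of all genes. Bag3 stood at 23.9 and 24.9 CPM in mice 16 and 55 and at 13.7 to 21.7 CPM in the other 10.

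Without mice 16 and 55, SCA1 sedentary against WT sedentary mice gave 10 lower and 2 higher members at an unadjusted p under 0.05, against 20.2% of all genes, and none was called (edgeR, lowest adjusted p 0.073). The lowest p was again that of Dnajc9 (−0.40 ± 0.10), followed by Hspa12a (−0.27 ± 0.08) and Hspb8 (−0.61 ± 0.18). SCA1 exercise against SCA1 sedentary mice gave 7 higher members and 1 lower, against 8.79% of all genes, with Hsp90b1 at 0.21 ± 0.08 and Hsp90aa1 at 0.27 ± 0.10. For the interaction the counts were 6 and 2, against 14.8% of all genes. Each SCA1 group then held 2 mice.

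The other genes of the chaperone network likewise held no call in any of the 7 comparisons by edgeR. Of 33 cochaperones of HSP70 and HSP90, 1 was higher and 1 lower at an unadjusted p under 0.05 in SCA1 sedentary against WT sedentary mice, Fkbp5, a glucocorticoid-responsive HSP90 cochaperone (0.77 ± 0.25), and the phosphatase Ppp5c (−0.19 ± 0.08), with edgeR adjusted p of 0.32 and 0.46. Fkbp5 stood at 8.21, 11.9 and 10.8 CPM in WT sedentary, 12.3, 21.03 and 14.0 in WT exercise, 18.7, 12.2 and 21.8 in SCA1 sedentary and 17.9, 15.9 and 13.8 CPM in SCA1 exercise mice, so that the WT sedentary mice were the lowest. Stub1, the ubiquitin ligase CHIP, was at −0.25 ± 0.10 in WT exercise against WT sedentary mice (edgeR adjusted p 0.96). The 14 genes of the TRiC chaperonin and prefoldin, which fold actin and tubulin, were all lower in WT exercise than in WT sedentary mice (median −0.21) and all had a positive interaction (median 0.19), and none had an unadjusted p under 0.05 in any comparison. Both comparisons share the WT exercise mice. Over all 12 mice the 5 oligodendrocyte markers moved the same way in value, with a median of −0.45 in WT exercise against WT sedentary mice and of 0.35 for the interaction. The 5 microglia and 5 erythrocyte markers were also all lower in WT exercise mice (medians −0.18 and −0.79), and the part of these markers was not tested. Of 16 genes of the unfolded protein response, 6 were higher and 10 lower in SCA1 sedentary mice, beside 52.5% of all genes higher. Their median was −0.04, and none was at an unadjusted p under 0.05. Among the 5 HSF genes tested, Hsf1 stood at 44.3 and 54.6 CPM in mice 16 and 55 against 57.0 to 82.0 CPM in the others. Hsf4 stood at 15.2 and 9.49 CPM in those mice against 2.25 to 5.35 CPM, and it was the only HSF gene at an unadjusted p under 0.05 (0.95 ± 0.43, SCA1 against WT averaged over activity, edgeR adjusted p 0.50).

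Whether partners of the same machine varied together was asked across mice. For 6 pairs, Pearson's r and Spearman's rho of log2 CPM were computed, with 2-sided permutation p adjusted over the 6. Hspa8 and its cochaperone Dnajb1 had r = 0.95 and rho = 0.90 over 12 mice (adjusted permutation p 0.00036 and 0.00156). Without mice 16 and 55 the values were r = 0.84 and rho = 0.85 (adjusted permutation p 0.0133 and 0.0182), and without the 2 mice farthest from the median of Hspa8, r = 0.81 (0.0294). The chaperonin partners Hspd1 and Hspe1, which share the heat shock element shown above, had r = 0.87 and rho = 0.80 over 12 mice. Without mice 16 and 55, r was 0.83 and rho 0.67, of which the latter did not pass (adjusted permutation p 0.0106 and 0.118). Without the 2 mice farthest from the median of Hspd1, r was 0.69 (adjusted permutation p 0.0765), so the relation rests in part on those mice.

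The other pairs were less stable. Dnajb1 and Hsph1 separated mice 16 and 55 from the rest, and among the other 10 mice r was 0.67 and rho 0.53 (adjusted permutation p 0.0574 and 0.185). Hspa1a and Hspa1b, whose counts may be split between copies, had r = 0.84 and rho = 0.61 among those 10 mice, and rho did not pass (adjusted permutation p 0.0164 and 0.134). Without the 2 mice farthest from the median of Hspa1a, r was 0.60 (adjusted permutation p 0.0878). The ER pair Hspa5 and Hsp90b1, with ER stress elements in both promoters, had r = 0.62 but rho = 0.30 over 12 mice, and without the 2 mice farthest from the median of Hspa5 r was 0.26 (adjusted permutation p 0.597). Hspa5 and Hspa8, from different compartments, had r = 0.54 and rho = 0.37 over 12 mice (adjusted permutation p 0.0843 and 0.283). Among the 10 mice other than 16 and 55, r was 0.20 (adjusted permutation p 0.640). All pairs share the libraries and their makeup of cell types, whose part in these correlations was not tested.

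**Figure D5:**
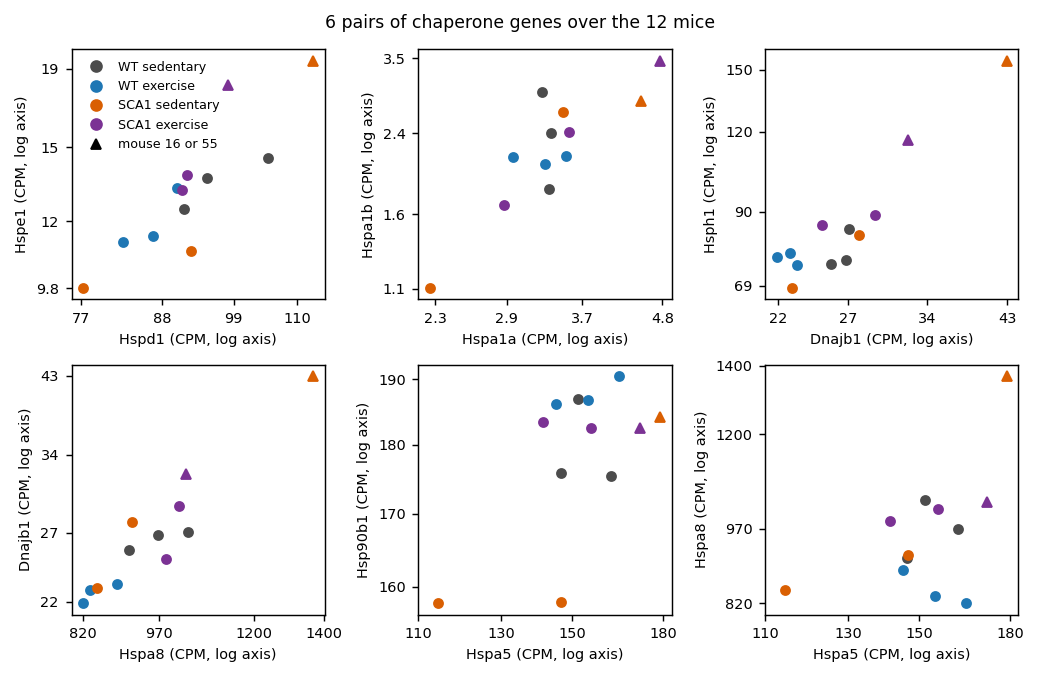
CPM of 6 pairs of chaperone genes (log axes), 1 point per mouse coloured by group, with mice 16 and 55 as triangles. Hspa8 and Dnajb1 lie along a line with r = 0.84 among the 10 mice other than 16 and 55, whereas Hspa5 and Hspa8 do not (r = 0.20). Over all 12 mice r was 0.95 and 0.54.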

How the data were processed

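The authors sequenced rRNA-depleted directional libraries, checked reads with FastQC, trimmed those files with much adapter sequence with fastp 0.24.0 and aligned them to GRCm39 with STAR 2.7.10a (versions per the submitters' processing notes), and the deposited values are raw counts of uniquely mapped read pairs per gene. Reverse-strand counts were used here. In R 4.3.3, genes kept by filterByExpr (20341) were normalized by TMM and fitted over 4 groups with edgeR 4.0.16 (quasi-likelihood), with SE as the absolute log2 fold change divided by the root of F. A call was an adjusted p under 0.05 with an absolute log2 fold change over 0.5. Log2 CPM used a prior count of 2. DESeq2 1.42.0 and other settings were alternatives, and scripts were tested on simulated data. Per comparison, called members and the 3 higher and 3 lower members with the smallest p were named, and members fixed by role were given by mouse. Members named by p thus tend not to overlap between groups, and the share of all genes without overlap was not counted. The members and lists were chosen with earlier results of these data known. Gene positions and exon lengths are from GENCODE M39, where 56323 genes matched and 618 did not. WT mice were littermates, but the labels do not say which mice shared a litter or a batch. Neither entered the model, and p-values measure the spread between these mice taken as unrelated. According to the paper, 2 libraries had altered fragmentation and amplification after lower RNA integrity. Which ones, and whether they were those of mice 16 and 55, is not given in the sources used here.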

Additional observations from a re-analysis of the deposited data

How the results depend on the processing

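The count of called chaperone genes stayed at 0 in each of the 7 comparisons under DESeq2, RLE factors, both count filters, unstranded counts, a chromosome Y covariate, no fold limit and each mouse left out, and in the 4 pairwise comparisons fitted to their own groups. Without mice 16 and 55, 1 gene was called in SCA1 against WT averaged over activity (Hspb8), and the median of the interaction was 0.14 in place of 0.05. With each mouse left out in turn, the median ranged from −0.10 to 0.051 for SCA1 sedentary against WT sedentary, from −0.042 to 0.14 for SCA1 exercise against SCA1 sedentary and from 0.017 to 0.19 for the interaction, with 1 end of each range from leaving out mouse 16 and the other from leaving out mouse 195. The 42 named fold changes kept their direction in all 814 refits. Over all genes, SCA1 against WT averaged over activity gave 24 calls, against 179 by DESeq2, 125 with all genes of at least 1 count, 142 without mice 16 and 55, 13 with unstranded counts, 15 with the chromosome Y covariate, and 0 to 63 with each mouse left out. SCA1 sedentary against WT sedentary gave 7, against 201 by DESeq2, 76 with all genes of at least 1 count, 205 without mice 16 and 55, 0 with the chromosome Y covariate or fitted to these groups only, and 0 to 42 with each mouse left out (0 without mouse 116 or 117, 42 without mouse 55). WT exercise against WT sedentary gave 0, against 63 by DESeq2, 45 with all genes of at least 1 count, 64 without mice 16 and 55 and 150 fitted to these groups only.

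Without the 2 mice farthest from the median of the former gene, r was 0.69 for Hspd1 and Hspe1, 0.60 for Hspa1a and Hspa1b, 0.67 for Dnajb1 and Hsph1 and 0.26 for Hspa5 and Hsp90b1, and these no longer passed. Without mice 16 and 55, r was 0.67 for Dnajb1 and Hsph1 and 0.65 for Hspa5 and Hsp90b1, likewise not passing. Hspa5 and Hspa8 passed when centred on group means (0.77) or with unstranded counts (0.63). The cause was not tested. No paired analysis was possible because the labels give no litters and the groups share no mouse numbers. Depth limits the low members, such as Hspa1b with 23 to 87 counts per library.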
